A study of Mus musculus with 8 samples.

Results

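Ccl28, its receptor gene Ccr10, the antibody joining chain gene Igj (now Jchain), the antibody transport receptor gene Pigr, the B cell and plasma cell genes Mzb1, Cd79a, Cd79b and Ms4a1, and the dendritic cell receptor gene Xcr1 were examined in mouse renal cortex. They were taken by gene symbol, and 8 of the 9 symbols were found among the 23504 symbols of the deposited count table. The symbol Mzb1 was not a row name, and the row under its older name, 2010001M09Rik, is given below as values only. The list was drawn up after earlier results of the same diet comparison were known, so the diet difference of these genes is described here without p-values. RNA came from manually dissected outer cortex of wild type C57Bl6/J mice, with the kidney capsule removed. The animals received a high fat diet (libraries A, B, F and G) or a control diet (libraries I, J, L and M) from 6 weeks of age for 9 weeks, and were 15 weeks old. Whether each library came from a separate mouse is not stated, nor is sex, although each title holds an unexplained M. In tissue RNA of this kind, fewer cells of a type and less RNA per cell cannot be told apart.

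CCL28 is a chemokine secreted by epithelia of mucosal surfaces and glands, and it attracts antibody-secreting cells, above all those that make IgA, through the receptor CCR10. Plasma cells join IgA and IgM into polymers with the J chain, the product of Igj. The polymeric immunoglobulin receptor, the product of Pigr, binds such polymers on the basal side of an epithelial cell and carries them to the lumen. CD79A and CD79B form the signalling part of the B cell antigen receptor and MS4A1 is the B cell surface protein CD20, and CD20 is lost when B cells become plasma cells, while MZB1 is an endoplasmic reticulum protein of B cells and plasma cells. XCR1 is the receptor of conventional type 1 dendritic cells for the chemokine XCL1.

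Sequence upstream of the start was taken from RefSeq (GRCm38.p6) for the genes that were higher on the high fat diet, Ccl28 and Igj, and for Pigr, whose level did not separate the diets, to show what the letters before each start hold. Each run is the 250 bases before the RefSeq start, on the strand of the gene, with matches to 6 searched motifs in capitals. RefSeq upstream windows were matched for 5 of the 9 genes. The window of Ccl28 is chr13:119623569-119623818 (plus strand), that of Igj chr5:88527898-88528147 (minus strand) and that of Pigr chr1:130826434-130826683 (plus strand).
Ccl28: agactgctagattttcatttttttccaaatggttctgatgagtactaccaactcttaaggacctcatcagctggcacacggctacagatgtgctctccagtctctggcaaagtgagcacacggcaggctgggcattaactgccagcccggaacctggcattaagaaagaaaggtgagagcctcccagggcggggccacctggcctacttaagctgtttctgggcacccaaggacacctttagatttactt
Igj: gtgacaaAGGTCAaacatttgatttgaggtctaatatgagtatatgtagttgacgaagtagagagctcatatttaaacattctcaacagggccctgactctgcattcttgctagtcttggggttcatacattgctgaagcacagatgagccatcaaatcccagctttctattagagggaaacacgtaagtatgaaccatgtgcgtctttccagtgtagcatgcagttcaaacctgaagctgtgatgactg
Pigr: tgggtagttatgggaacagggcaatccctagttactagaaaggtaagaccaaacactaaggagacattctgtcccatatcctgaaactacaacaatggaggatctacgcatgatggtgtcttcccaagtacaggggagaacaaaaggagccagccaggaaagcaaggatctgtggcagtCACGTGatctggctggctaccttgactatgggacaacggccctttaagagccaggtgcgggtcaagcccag
The motifs, searched on both strands, were the octamer ATGCAAAT, the TATA box TATAAA, the AP-1 site TGANTCA, the nuclear receptor core site AGGTCA, the E-box CACGTG and the GAS element TTCNNNGAA. The Ccl28 window held none of these letters. The Igj window held AGGTCA from 243 to 238 bases before the start, a motif found in 14.0% of 32851 RefSeq upstream windows of the same length. The Pigr window held CACGTG from 71 to 66 bases before the start, found in 6.02% of those windows. A match describes the letters only.

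The libraries held 23503593 to 30781585 expected counts each, and from 13993652 to 30403685 once Rn45s, the ribosomal RNA precursor, was left out. The lowest value was control J, where Rn45s took 50.3% of counts against 1.23% to 13.3% elsewhere. Levels are therefore CPM, counts as a share of the library's counts in the genes fitted, Rn45s left out, scaled by TMM factors. The call threshold was an adjusted p of 0.05 (Benjamini-Hochberg, quasi-likelihood test of edgeR). It was met by 1469 of the 14711 genes fitted, which is 9.99%, with 4.86% higher and 5.13% lower on the high fat diet. An unadjusted p under 0.05 was found for 4026 genes, or 27.4%, the share to set beside such counts in the gene lists. The gene lists, too, were chosen with earlier results of these data known. The p-values given for list genes therefore describe these libraries and are no independent test. The libraries carried kidney tubule RNA throughout: the summed level of 10 proximal tubule markers ran from 38179 to 50736 CPM, and that of 8 markers of urothelium from 1.07 to 2.03 CPM.

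Ccl28 and Igj were the members with higher levels in all 4 high fat libraries than in any control library. They were also the 2 members called, of 6 tested, beside 9.99% of all tested genes, and nothing is read from that count because the list was drawn up from this comparison. Ccr10, Pigr, Cd79b and Xcr1 did not pass, and Cd79a and Ms4a1 had too few counts to pass the filter. The filter on low counts was 0.411 CPM of the library total without Rn45s, before TMM scaling. The 6 tested members passed it in all 4 libraries of each diet. Complete separation of the diets was seen with higher high fat values in 8.31% and with lower ones in 9.2% of tested genes.

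**Figure D1:**
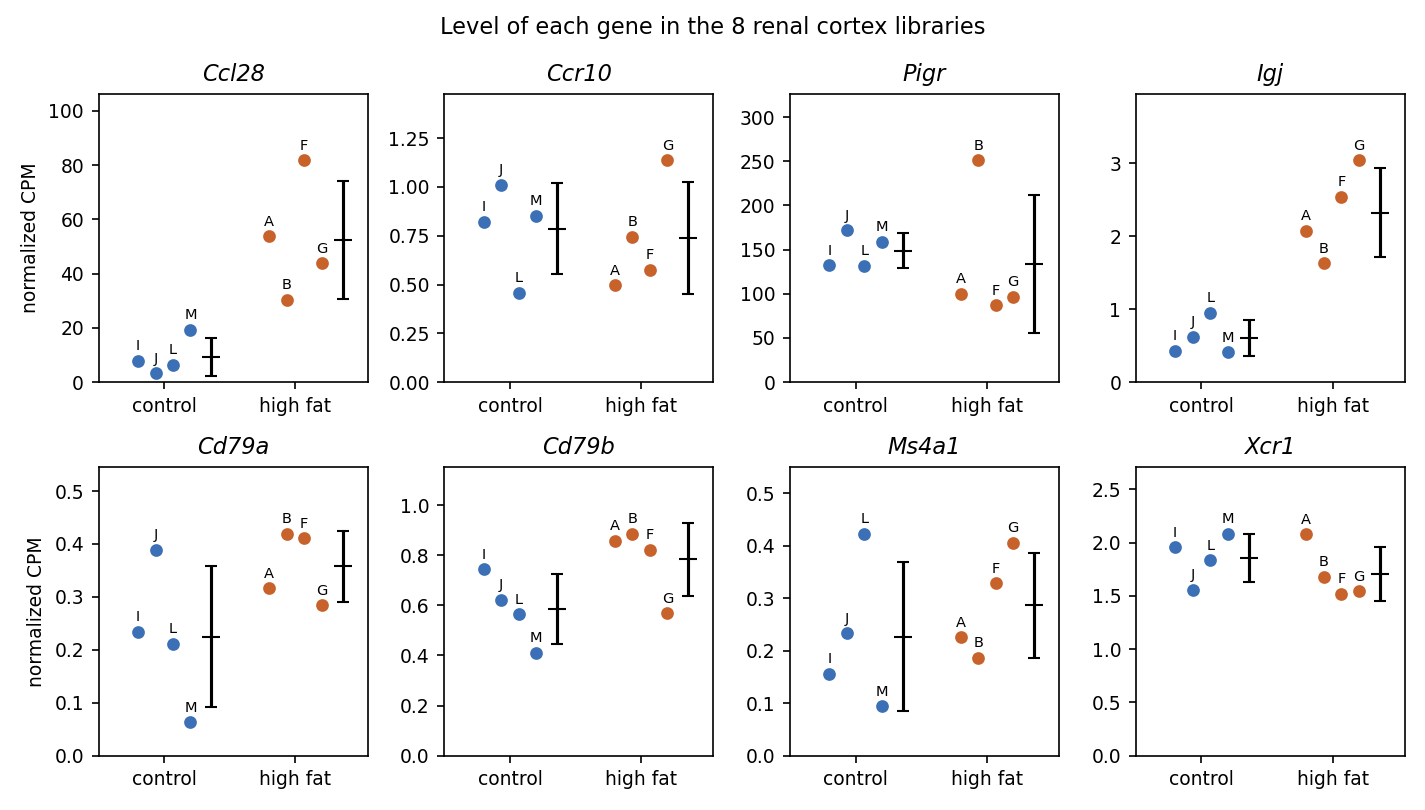
Level of each gene (y axis, normalized CPM from 0, a separate scale per panel) in the 4 control libraries (blue) and 4 high fat libraries (orange), each point marked with its library letter; the bar beside each group is the mean ± SD. Ccl28 and Igj separate the diets, high fat B stands alone for Pigr at 251 CPM, and the other 5 genes overlap between the diets.

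Ccl28 (chromosome 13, 119623819 to 119654359, plus strand) stood at 7.90, 3.27, 6.49 and 19.4 CPM in control I, J, L and M. On the high fat diet it reached 53.9, 30.4, 81.9 and 43.9 CPM in A, B, F and G. The lowest high fat library, B, lay above the highest control library, M, and within the control diet M lay well above the other 3. The means were 52.5 ± 21.8 CPM against 9.25 ± 7.01 CPM (SD, n = 4 each), a log2 difference of 2.42 ± 0.42 (SE), or 5.37-fold. These levels rest on 652 to 1993 counts per high fat library and 42 to 613 counts per control library. The fold was 8.48 without control M, the library that moved it most, and between 4.37 and 8.48 over the 8 fits that left out 1 library. The authors' deposited table of comparisons, which lists 1133 symbols, gave Ccl28 a fold of 5.68.

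Ccr10 encodes the receptor through which CCL28 attracts antibody-secreting cells (chromosome 11, 101172997 to 101175443, minus strand). It stood at 0.821, 1.01, 0.459 and 0.852 CPM in control I, J, L and M and at 0.497, 0.746, 0.575 and 1.14 CPM in high fat A, B, F and G. The diets overlapped, and the library with the highest Ccl28, high fat F, was not the one with the highest Ccr10, high fat G. The log2 difference was -0.03 ± 0.31 (SE), on 11 to 28 counts per library, and ran from -0.33 without high fat G to 0.12 without high fat A, so at this depth only a large difference could have been seen. The other receptor of CCL28, Ccr3, had 5 counts in all 8 libraries together.

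Ccl27a, the gene of the other chemokine that binds CCR10, stood at 6.11 ± 0.80 against 6.14 ± 0.87 CPM (SD, n = 4 each) and did not pass (adjusted p = 0.96, edgeR). The list of chemokines, adhesion molecules and cytokines that guide or keep antibody-secreting cells held 11 tested genes, of which none rose, none fell and 1 had an unadjusted p under 0.05 in edgeR, beside 27.4% of all tested genes. While edgeR called 9.99% of all tested genes, neither DESeq2 nor limma-voom called any of the 11. Their median log2 difference was -0.08, beside 0.00 over all tested genes. Tnfsf13 and Tnfsf13b, which encode the plasma cell survival factors APRIL and BAFF, were at 1.89 ± 0.26 against 2.11 ± 0.57 CPM and at 1.01 ± 0.25 against 1.22 ± 0.14 CPM (high fat against control, SD, n = 4 each). Ccr9, a receptor that guides cells to the small intestine, was at 2.31 ± 0.50 against 2.29 ± 0.33 CPM.

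The pattern of Ccl28 over the 8 libraries was set beside that of 12355 other named genes, all with means of 1 CPM or more, as Pearson's r of log2 CPM. The 6 genes most like it were Slco1a1 (r = 0.997), Mtor (0.997), Acsm3 (0.997), Slc18a1 (0.993), Pzp (0.990) and Acsm2 (0.988). In all, 99 genes had r over 0.95, and 22 genes put the 8 libraries in the same order as Ccl28. Because genes that separate the diets raise each other's r, the diet means were then removed, after which 33 genes had r over 0.95. The 6 highest were Slco1a1 (0.993), Acsm3 (0.988), Mtor (0.988), Gpd2 (0.987), Robo4 (0.982) and Ctxn3 (0.982). Within each diet, then, the libraries high in Ccl28 were also those high in these genes. Slco1a1, an organic anion transporter gene of the proximal tubule, stood at 426, 270, 363 and 594 CPM in control I, J, L and M. In high fat A, B, F and G it stood at 881, 699.9, 1048 and 771 CPM. Control J was lowest, control M highest among controls, and high fat F highest of all, as for Ccl28. Its log2 difference was 1.04 where that of Ccl28 was 2.42. Acsm3, an acyl-CoA synthetase gene, differed by 1.13 and Ctxn3 by 3.40, while Robo4 differed by 0.14 and did not pass (adjusted p = 0.45 in edgeR). Within a library all genes share its depth and tissue composition, and depth differed between the libraries. These r values describe 8 libraries, and no test was made of them.

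**Figure D2:**
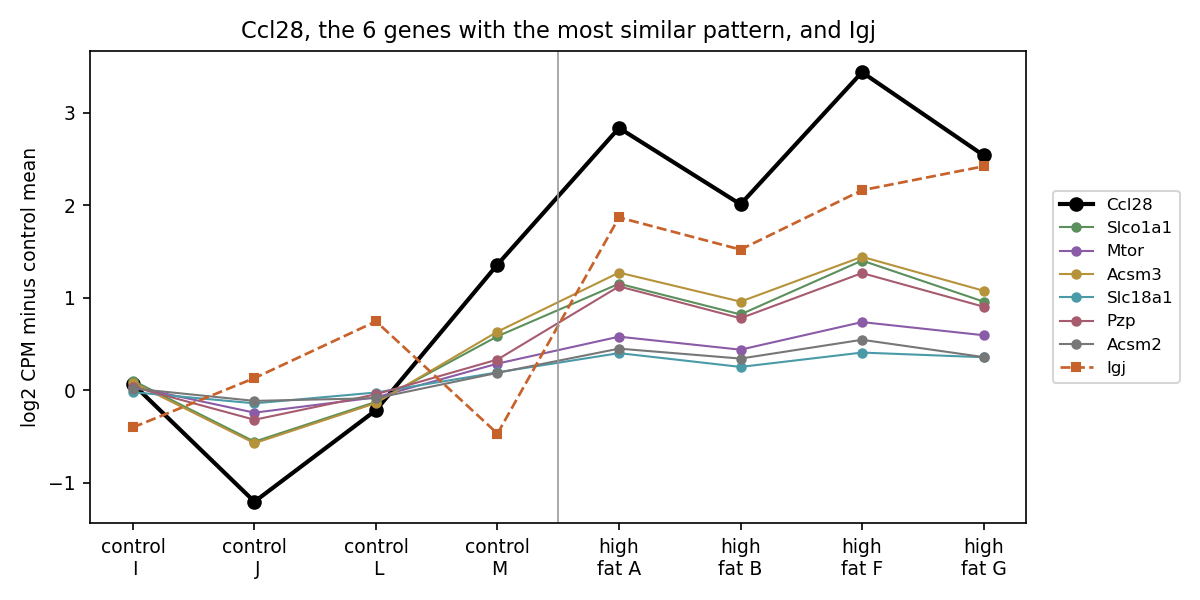
Log2 CPM minus the gene's control mean (y axis) in each library (x axis, control left of the line and high fat right of it) for Ccl28 (black), the 6 genes with the highest r with it over 8 libraries, and Igj (dashed); the lines only join the points of a gene. Ccl28 and the 6 genes dip in control J and peak in high fat F, whereas Igj is lowest in control M and highest in high fat G.

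Igj encodes the J chain that links IgA and IgM into polymers (Jchain, chromosome 5, 88519809 to 88527891, minus strand). It stood at 0.430, 0.622, 0.953 and 0.410 CPM in control I, J, L and M, on 11, 8, 27 and 13 counts. In high fat A, B, F and G it stood at 2.08, 1.63, 2.55 and 3.05 CPM, on 46, 35, 62 and 75 counts. Every high fat library lay above every control library, although all levels were low. The means were 2.33 ± 0.609 against 0.604 ± 0.251 CPM (SD, n = 4 each), a log2 difference of 1.95 ± 0.29 (SE), or 3.87-fold. Leaving out 1 library gave 3.40-fold to 5.03-fold. The authors' deposited table of comparisons by symbol gave Igj a fold of 3.80, and Igj was the only one of the 8 genes in the authors' deposited Ensembl table, with a fold of 3.81. The order of libraries differed from that of Ccl28: control M, highest of the controls for Ccl28, was the lowest of all for Igj.

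**Figure D3:**
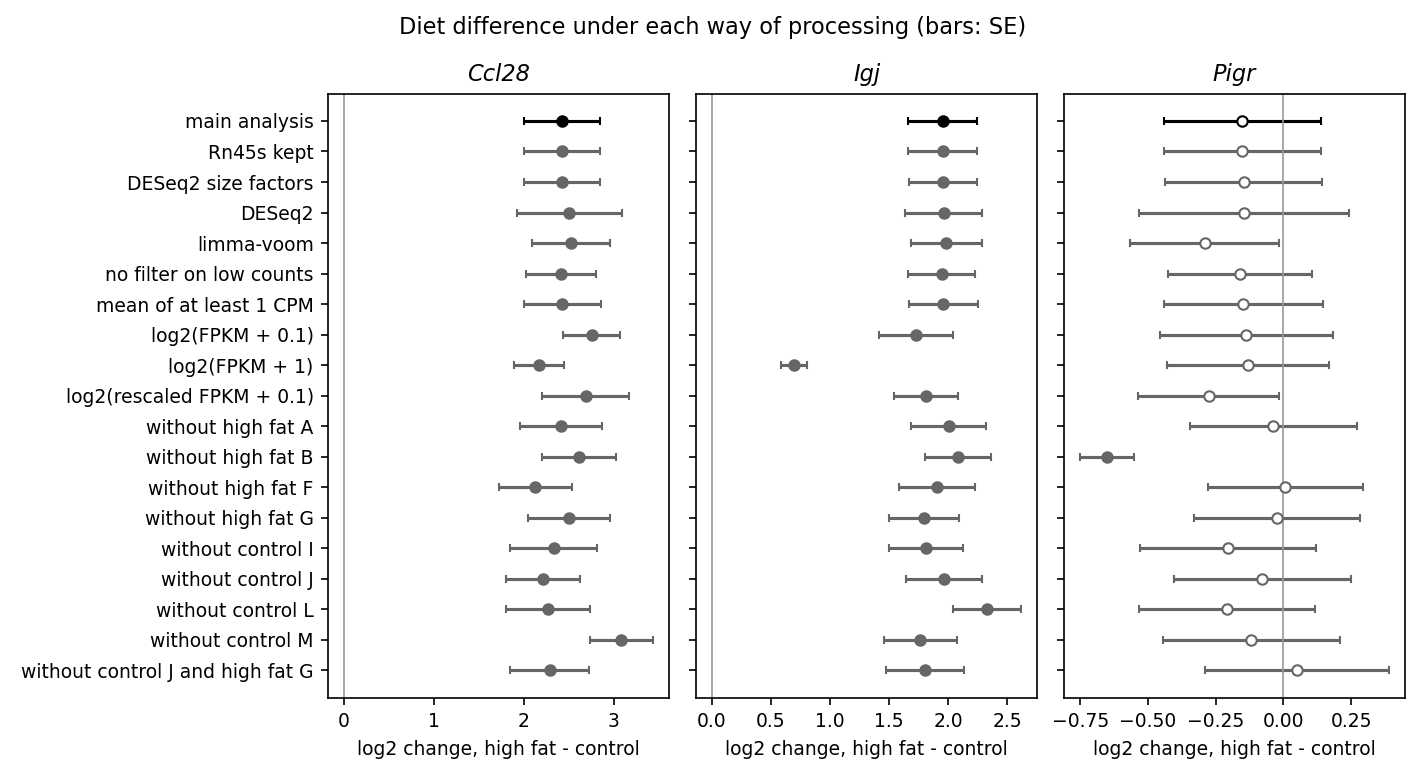
Log2 difference between high fat and control (x axis, a separate scale per panel; bars are SE) for Ccl28, Igj and Pigr under the main analysis and each alternative (y axis); filled points passed at an adjusted p under 0.05. Ccl28 and Igj are filled and above 0 in every line, and Pigr is filled only without high fat B.

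Among symbols that begin with Igh, Igk or Igl and name an antibody chain, the table held 1, the surrogate light chain gene Igll1, with 0 to 4 counts per library; the other heavy and light chains were not analysed here. The row 2010001M09Rik, the older name of Mzb1, had 8, 3, 9 and 9 counts in high fat A, B, F and G and 6, 2, 6 and 4 in control I, J, L and M. Tnfrsf17, encoding the plasma cell survival receptor BCMA, had 11 counts in all 8 libraries together, Tnfrsf13b had 10 and Pou2af1, a B lineage coactivator gene, had 39. Irf4 and Prdm1, which encode transcription factors of plasma cell formation, stood at 1.04 ± 0.36 against 0.725 ± 0.175 CPM and 3.30 ± 0.39 against 2.94 ± 0.33 CPM (high fat against control, SD, n = 4 each). Neither passed (adjusted p = 0.28 and adjusted p = 0.50 in edgeR).

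The plasma cell list held 19 genes in the table, 15 of them tested. By edgeR none rose, 3 fell and the other 12 missed the threshold, and the median log2 difference was -0.01 beside 0.00 over all tested genes. Over all tested genes 4.86% rose and 5.13% fell. Of the 15, 4 had an unadjusted p under 0.05 in edgeR, beside 27.4% of all tested genes. The 3 that fell serve the endoplasmic reticulum of many secretory cells as well as plasma cells: Txndc5, a disulfide isomerase gene, by 0.36, Creld2, a stress-induced chaperone gene, by 0.63, and Xbp1, a regulator of secretory capacity, by 0.48 on the log2 scale (adjusted p of 0.014, 0.037 and 0.046 by edgeR). Xbp1 was at 113 ± 19.8 against 158 ± 26.2 CPM (SD, n = 4 each), and its call was lost without high fat A, B or F and without control I or J (highest adjusted p 0.122 by edgeR, with control I left out). Creld2 lost its call without the same 5 libraries (highest adjusted p 0.0995 by edgeR). With all 8 libraries Creld2 was not called by limma-voom (adjusted p = 0.056). FPKM rescaled without Rn45s and fitted in limma called neither Creld2 (adjusted p = 0.057) nor Xbp1 (adjusted p = 0.060). Syndecan 1, the plasma cell surface marker that tubule cells also make, gave 11.97 ± 0.31 against 12.7 ± 0.41 CPM for Sdc1 and did not pass. The summed level of the list ran from 340.2 to 395.7 CPM on the high fat diet and from 395.3 to 471 CPM on the control diet. Much of this sum came from the 3 genes that fell. Beside Xbp1, Txndc5 was at 66.5 ± 3.67 against 85.2 ± 8.01 CPM and Creld2 at 28.1 ± 2.65 against 43.9 ± 12.0 CPM (SD, n = 4 each). The sum is therefore no measure of plasma cells alone. How far plasma cell number bears on the Igj difference was not tested.

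The B cell receptor genes were near the limit of detection. Cd79b, the beta chain (chromosome 11, 106311341 to 106314762, minus strand), stood at 0.858, 0.886, 0.822 and 0.569 CPM in high fat A, B, F and G. In control I, J, L and M it stood at 0.743, 0.622, 0.564 and 0.410 CPM. High fat G lay among the controls, and the log2 difference of 0.44 ± 0.25 (SE) did not pass. Cd79a, the alpha chain (chromosome 7, 24897381 to 24902197, plus strand), had 7 to 10 counts per high fat library and 2 to 6 per control library, 33 against 19 in all, at 0.358 ± 0.068 against 0.225 ± 0.133 CPM (SD, n = 4 each). Ms4a1, encoding CD20 (chromosome 19, 11249675 to 11266241, minus strand), had 27 counts over the high fat libraries and 22 over the controls, at 0.287 ± 0.10 against 0.227 ± 0.143 CPM, with its highest value in control L. Fitted without the filter on low counts, the log2 difference was 0.83 ± 0.44 (SE) for Cd79a and 0.36 ± 0.48 (SE) for Ms4a1, and neither was called.

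Of 20 further B cell genes in the table, 15 had a mean under 1 CPM and 11 were tested. Beside 9.99% of all tested genes called by edgeR, none of the 11 rose or fell by edgeR, DESeq2 or limma-voom. In edgeR, the unadjusted p of 1 of them was under 0.05, beside 27.4% of all tested genes. Of the 11, 7 had a log2 difference above 0 and 4 below 0, and the median log2 difference was 0.04. Pax5, encoding the transcription factor of B cell identity, had 10 counts over 8 libraries, too few to test. Most of the list's summed level, 184 to 229 CPM on the high fat diet and 152 to 206 CPM on the control diet, came from Cd74, the invariant chain gene that all antigen-presenting cells express. Cd74 was at 170.5 ± 18.8 against 155 ± 21.3 CPM (SD, n = 4 each) and did not pass (adjusted p = 0.42 in edgeR).

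Pigr encodes the receptor that carries polymeric IgA and IgM across epithelium (chromosome 1, 130826684 to 130852249, plus strand). It was the most abundant of the 8 genes. It stood at 132, 172, 132 and 159 CPM in control I, J, L and M and at 100.2, 251, 87.0 and 96.6 CPM in high fat A, B, F and G. High fat A, F and G lay below all 4 controls, and high fat B lay above all of them. With B included the means were 134 ± 78.5 against 149 ± 20 CPM (SD, n = 4 each), a log2 difference of -0.15 ± 0.29 (SE) that did not pass. Without high fat B the log2 difference was -0.65, or 0.637 of the control level, and Pigr was then called. The log2 difference was 0.0069 without high fat F and 0.05 with control J and high fat G both left out, neither of them called, so both its sign and its call changed with the libraries counted.

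Genes of the cytokine receptors and transcription factors known to act on Pigr gave 1 rise among 15 tested, that of Ifngr2, a chain of the interferon gamma receptor, from 20.1 ± 1.94 to 26.3 ± 0.56 CPM (SD, n = 4; log2 difference 0.38 ± 0.07 SE, adjusted p = 0.010 in edgeR). None fell and 14 did not pass, and the median log2 difference in edgeR was 0.08. DESeq2 called 2 of the 15, beside 1826 of all 14711 genes tested. In edgeR, 4.86% of all tested genes rose and 5.13% fell. An unadjusted edgeR p under 0.05 was found for 3 of the 15, beside 27.4% of all tested genes. Among genes of antibody receptors and antibody uptake, 1 of 11 tested genes rose, 1 fell and 9 did not pass, with a median of 0.00. The shares over all tested genes were again 4.86% and 5.13%. Of the 11, 5 had an unadjusted p under 0.05 in edgeR, beside 27.4% of all tested genes. Fcamr, encoding a receptor for the Fc part of IgA and IgM, stood at 31.0, 34.2, 31.9 and 44.1 CPM in control I, J, L and M. It rose to 63.2, 63.1, 65.8 and 49.7 CPM in high fat A, B, F and G. All high fat libraries lay above all controls, with high fat G and control M closest to each other. The means were 60.4 ± 7.29 against 35.3 ± 6.03 CPM (SD, n = 4 each), a log2 difference of 0.77 ± 0.12 (SE; edgeR adjusted p = 0.0044). It kept its call in each fit that left out 1 library. Cubn, encoding the tubular protein uptake receptor cubilin, fell from 1634 ± 41.0 to 1361 ± 66.8 CPM (log2 difference -0.26 ± 0.06 SE, adjusted p = 0.018 in edgeR), a call lost without high fat F (adjusted p = 0.0512 in edgeR). Fcgrt, the neonatal Fc receptor gene, was at 269 ± 30.6 against 224 ± 11.8 CPM and did not pass (adjusted p = 0.059 in edgeR); it passed in DESeq2 (adjusted p = 0.023) and in edgeR without high fat F (adjusted p = 0.035). Fcer1g, the shared signalling chain of Fc receptors on myeloid cells, was at 2.86 ± 0.70 against 2.81 ± 0.62 CPM.

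Xcr1, the dendritic cell receptor gene (chromosome 9, 123852315 to 123862029, minus strand), stood at 1.96, 1.56, 1.83 and 2.08 CPM in control I, J, L and M. In high fat A, B, F and G it stood at 2.08, 1.68, 1.52 and 1.54 CPM. The diets overlapped almost fully, with a log2 difference of -0.15 ± 0.16 (SE), and Xcr1 varied least among the 8 genes, its highest library being 1.37 times its lowest. Its ligand gene Xcl1, made by natural killer and T cells, had 34 counts over 8 libraries. Of the other conventional type 1 dendritic cell genes, 12 were tested. EdgeR, DESeq2 and limma-voom called none of them (9.99% over all tested genes in edgeR). Of the 12, 4 had an unadjusted p under 0.05 in edgeR (27.4% over all tested genes), and the median log2 difference was 0.04. Clec9a, a receptor gene that marks these cells, was at 4.17 ± 0.63 against 3.83 ± 0.53 CPM and Batf3, a transcription factor gene they depend on, at 0.603 ± 0.255 against 0.721 ± 0.222 CPM (SD, n = 4 each).

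Genes of other cells that the tissue could hold were measured alongside. Tested were 7 genes of T and natural killer cells, 7 of macrophages and neutrophils and 3 of lymph node stroma. EdgeR called 9.99% of all tested genes, and neither edgeR, DESeq2 nor limma-voom called any gene of these lists. The unadjusted edgeR p was under 0.05 for 0, 0 and 1 of their tested genes, beside 27.4% of all tested genes. The summed level of 16 T and natural killer genes was 5.69 to 8.45 CPM on the high fat diet and 5.47 to 8.21 CPM on the control diet. Of these 16 genes, 14 had a mean under 1 CPM. The summed level of 7 lymph node stroma genes, 4 of them under 1 CPM, was 75.5 to 89.0 and 71.3 to 95.0 CPM. Chst4, a gene of lymph node vessels, had 0 counts in every library. Markers of the tubule did differ: 5 of 8 of the thick ascending limb fell, 3 of 14 of the collecting duct and distal tubule fell, and 4 of 10 of the proximal tubule rose while 1 fell. Over all tested genes 4.86% rose and 5.13% fell. An unadjusted p under 0.05 in edgeR was found for 6, 5 and 8 of these markers in that order, beside 27.4% of all tested genes. The largest fall among these markers was that of Aqp4, a collecting duct water channel gene, by 1.89 on the log2 scale (adjusted p = 0.0023 in edgeR). Slc12a1, Cldn19, Ppp1r1a and Kcnj1 of the thick ascending limb fell by 0.53, 0.39, 0.39 and 0.30 and Scnn1g and Avpr2 of the collecting duct by 0.44 and 0.45. Of the proximal tubule genes, Cyp2e1, Ggt1 and Slc22a30 rose by 0.46, 0.26 and 0.42 and Slc7a13 fell by 0.40. Some of these calls were lost with 1 library left out: that of Kcnj1 without high fat F or control I (highest edgeR adjusted p 0.0618), that of Ggt1 without high fat A or F or control I, J or L (0.0642), that of Slc22a30 without high fat A, F or G or control I, J or L (0.0932), and that of Slc7a13 without high fat F or G or control I or M (0.101). The summed proximal tubule level was 45415 to 50736 CPM on the high fat diet and 38179 to 46083 CPM on the control diet. The part of these tubule differences in the levels of Ccl28, Pigr and Fcamr, all of which can be made by epithelium, was not tested.

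**Figure D4:**
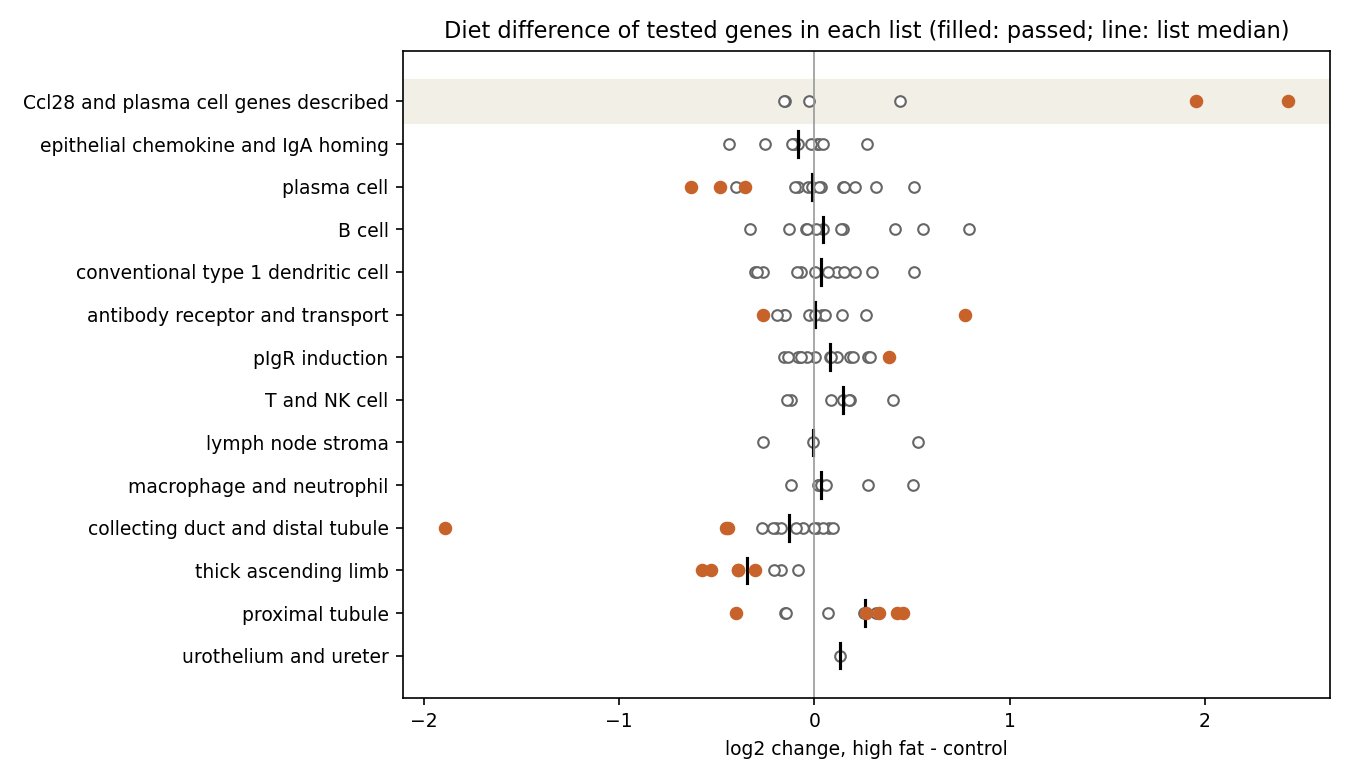
Log2 difference between high fat and control (x axis) of every tested gene, grouped by list (y axis, the members in the shaded top row); filled points passed at an adjusted p under 0.05 in edgeR and the vertical line is the list's median. Ccl28 and Igj lie at 2.42 and 1.95, and no filled point of the plasma cell list is above 0.

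Compared per transcript length, as deposited FPKM rescaled to 1e6 per library without Rn45s (TPM), the order of the genes on the control diet was Pigr (76.3 ± 9.45), Ccl28 (5.03 ± 4.04), Cd79b (1.00 ± 0.22), Ccr10 (0.908 ± 0.246), Xcr1 (0.826 ± 0.139), Igj (0.578 ± 0.238), Cd79a (0.340 ± 0.188) and Ms4a1 (0.219 ± 0.135; SD, n = 4 for each). Pigr and Ccl28 each lay apart from the gene next to them in all 4 controls, and from Cd79b downwards the control values of each neighbouring pair overlapped. On the high fat diet Ccl28 stood at 28.4 ± 12.6 TPM and Igj at 2.25 ± 0.66 TPM. Igj then lay above Cd79b (1.34 ± 0.23 TPM) in each high fat library. High fat F held the highest Ccl28, 45.4 TPM, which came close to its Pigr level of 46.9 TPM, while in control J the pair stood at 1.6 and 82.2 TPM.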

How the data were processed

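Expression in the outer renal cortex was measured by RNA sequencing in 8 libraries, 4 per diet. The submitters' processing notes name CASAVA 1.8.2, RSEM 1.2.9 and mm10. The deposited expected counts, 1 value per symbol and library, are RSEM estimates in which reads that fit several genes are divided among them. The authors also deposited FPKM, and comparison tables with a fold (a ratio) and a posterior probability of equal expression; the tool that made the latter is not named in the labels or headers.

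Rn45s was left out, and the rounded expected counts were fitted in R 4.3.3 with edgeR 4.0.16 (quasi-likelihood test, TMM factors, filterByExpr at a minimum count of 10, diet as the only term), with adjusted p under 0.05 as the threshold. The SE is the log2 difference divided by the square root of F. The fit was also run on counts simulated gene by gene from the fitted spreads. Such counts do not carry patterns shared between genes, so that run is no check of these libraries. P-values set the diet difference against the spread between these libraries. The labels do not say whether each library came from a separate mouse, so what that spread stands for is not known. Alternatives were Rn45s kept, DESeq2 size factors, DESeq2 1.42.0, limma-voom (limma 3.58.1), other filters, log2(FPKM + 0.1) and log2(FPKM + 1) in limma, and leaving out libraries; rescaled FPKM was added after the data were seen.

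The members and the 13 gene lists were chosen with earlier results of these data known. List symbols were matched through RefSeq synonyms; 2 of 172 found no match. Genes named are the members, in each list the called genes of smallest p, 4 at most, 19 further genes given whatever their result (1 is not reported here), and the 6 genes most like Ccl28 by each measure, predicted genes left out. Positions are GENCODE M21 gene bounds on GRCm38, the assembly of mm10.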

Additional observations from a re-analysis of the deposited data

Results flagged for a closer look

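In each diet's 4 libraries, the gap of the highest or lowest library to the nearest other, divided by the whole range, was compared with Dixon's 95% critical value. Of 84 such groups, 6 exceeded it, where chance flags about 1 in 20. Pigr stood at 251 CPM in high fat B against 87.0 to 100.2 CPM in the other high fat libraries. High fat G accounted for 4 of the 6. There, Tnfsf13b was at 1.38 CPM against 0.839 to 0.904, Clec9a at 5.12 CPM against 3.82 to 3.90 and Creld2 at 32.1 CPM against 26.5 to 27.0. Fcamr was lower in high fat G than in the rest of its diet, at 49.7 CPM against 63.1 to 65.8. Kcnj1 was at 201 CPM in high fat F against 226 to 230.1 CPM.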

How the results depend on the processing

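Over the 18 alternatives the log2 difference of Ccl28 ran from 2.13 to 3.08 and that of Igj from 0.70, with log2(FPKM + 1), to 2.33; as the same libraries led to the choice of these genes, this is a description only. The number of members called was 2, and 3 without high fat B, where Pigr was called. The number of all called genes, 1469, was 126 (89 higher, 37 lower, against 715 and 754) with log2(FPKM + 0.1), 147 (100 and 47) with log2(FPKM + 1), 781 with rescaled FPKM and 417 with control J and high fat G both left out. With 1 library left out it was lowest, 739, when that was high fat F, and highest, 1528, when it was control M. The deposited FPKM moved the median log2 difference of all genes by 0.14 (pseudocount 0.1); after rescaling without Rn45s the shift was 0.01. Of the 124 list genes tested, 19 were called in the main analysis. Of 143, 2 and 1 were called with log2(FPKM + 0.1) and log2(FPKM + 1). With the pair of libraries left out 5 of 126 were called, and without 1 library 11 to 23. In the plasma cell list, with 15 genes tested, these counts were 3 in the main analysis, then 0, 0 and 0, 1 with rescaled FPKM, and 1 to 3. Among the 11 antibody receptor and transport genes tested they were 2, then 0, 0 and 1, and 2 to 3 without 1 library. DESeq2 called 4 of the 11, beside 1826 of all 14711 genes tested. Fcamr lost its call in both fits of deposited FPKM (adjusted p = 0.22 and adjusted p = 0.17 in limma).

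Differences near 0 changed sign without being called. Ccr10 was at 0.048 with log2(FPKM + 0.1) and 0.019 with log2(FPKM + 1), and ranged from -0.33 to 0.12 without 1 library. Xcr1, at -0.15 in the main analysis, was at 0.0014 with log2(FPKM + 0.1). Ccl27a was at -0.0044 with rescaled FPKM and between -0.069 and 0.079 without 1 library. Ccr9 ranged from -0.045 to 0.18 and Fcer1g from -0.17 to 0.16 without 1 library. Fcer1g was at -0.019 with limma-voom and -0.0066 without a filter. Tnfsf13 was at 0.018 with log2(FPKM + 0.1) and 0.0072 with log2(FPKM + 1), and ranged from -0.22 to 0.032 without 1 library. Sdc1 was at 0.066 and 0.041 with these 2 pseudocounts. Without control J and high fat G, Tnfsf13 was at 0.014, Clec9a at -0.030 and Fcer1g at -0.24.
No paired analysis was possible because the library letters differ between the diets. Counts of under 30 per library limit what can be said of Ccr10, Cd79a, Cd79b and Ms4a1, and of Igj in the controls.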
